A study of Mus musculus with 16 samples.

Results

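The 48 genes described here act in G2 phase and mitosis. They were taken by name from a given list of cyclins, mitotic kinases, kinetochore, spindle, cytokinesis, anaphase and condensin genes, and all 48 were found among the 14552 genes of the table. The rule itself uses names and no expression value, although the list was drawn up with earlier results of these data known. By role they fall into 10 cyclins, kinases and CDC25 phosphatases, 11 kinetochore and spindle checkpoint genes, 4 genes of the chromosomal passenger complex, 12 spindle and cytokinesis genes, 4 genes of the anaphase-promoting complex and separase, and 7 condensin and mitotic chromosome genes.

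Entry into mitosis is driven by CDK1 bound to cyclin B, which CDC25 phosphatases switch on and WEE1 holds off. In mitosis, condensin compacts the chromosomes, kinetochores attach them to spindle microtubules, and the spindle checkpoint holds CDC20 until every chromosome is attached. CDC20 then activates the anaphase-promoting complex, a ubiquitin ligase that destroys cyclin B and securin and so frees separase to split the sister chromatids. Messenger RNAs of these genes rise late in each cell cycle, through MuvB complexes with B-MYB and FOXM1, and are held down in resting cells by the DREAM complex, which reads a promoter element called the CHR. Mouse embryonic stem cells cycle fast with a short G1, so these messages are abundant in them.

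The RNA came from E14 mouse embryonic stem cells that carry a degron tag on Ddx10 together with Tir1 (Ddx10-AID, Tir1). Ddx10 encodes a DEAD-box RNA helicase needed for making ribosomes, and Tir1 is the plant receptor through which auxin marks a tagged protein for destruction. All 8 groups have this genotype and hold 2 libraries each: 500 µM indole-3-acetic acid, an auxin, for 2, 4, 6 or 12 h or for 1 day or 2 days, then 2 days with auxin followed by 2 days after its withdrawal, and untreated cells. All cells grew on gelatin with 15% serum, 1000 U/mL LIF, 3 µM CHIR99021 and 1 µM PD0325901. No untagged cells given auxin were analysed here, and the effects of auxin itself and of DDX10 loss cannot be told apart. The sources used here do not say whether the line is 1 clone or whether replicates were grown as separate cultures. The p-values therefore measure the spread between these libraries, which may be technical.

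The values are normalized counts, and a library held an estimated 13.6 M to 17.5 M reads in genes . All 10 stem cell markers on the marker list were present, with summed values between 100524 and 135921. Fibroblast markers, of which 3 of 8 were in the table, summed to between 124 and 238, and primitive endoderm markers (6 of 7) to between 80.2 and 166. The sum for primitive endoderm was 152 and 166 at 2 days, against 80.2 and 81.1 in untreated cells, and its part in the results was not tested. Ddx10 mRNA stood at 997 and 1041 at 2 days of auxin, against 1433 and 1509 in untreated cells. The degron acts on the protein, so this mRNA does not check the loss of DDX10.

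The 8 libraries of 2 to 12 h stood apart from the other 8. Of the 48 genes, 8 were higher in all 8 of these libraries than in all the others, and none was lower. Over all 13355 genes tested, 424 stood above and 591 below in this way, so that 16.7% of the members were apart, against 7.60% of all genes. The labels name no library batch, and a difference in handling cannot be told apart from an early effect of auxin. Comparisons of 2 to 12 h with untreated cells carry this limit, and comparisons with 2 h are given beside them. The untreated and 1-day pairs agreed least well: the median difference between replicates over the members was 0.133 and 0.134 on the log2 scale in these groups, against 0.0415 to 0.0762 in the others.

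Promoters are shown because the CHR and a neighbouring CCAAT box are the sequence features by which many genes of this class are known to be controlled. Sequences are from RefSeq on GRCm38.p6, from 250 bases before to 50 after the annotated start, and 40 of the 48 genes matched, 38 of them with 1 window. Searched on both strands were the CHR, as TTTGAA or TTCGAA, and the CCAAT box, as CCAAT. The letters TTCGAA read the same on both strands and were counted once. A CHR and a CCAAT match may overlap at their ends, and each was counted on its own. The windows below lie at chr9:70421505-70421804 (Ccnb2, minus strand), chr10:69352863-69353162 (Cdk1, minus strand), chr7:122159185-122159484 (Plk1, plus strand) and chr11:43425932-43426231 (Pttg1, minus strand). They are printed along the direction of the gene, with the matches to CHR and CCAAT letters, or their reverse, in capitals. The first 3 belong to genes that fell strongly under auxin, and Pttg1, which was not called at 2 days, is shown beside them. These examples do not stand for the whole list. Ccnb1 and Birc5 also fell strongly and had no CHR in their window, whereas Ccnf and Anln, not called at 2 days, had a CHR near the start.
Ccnb2: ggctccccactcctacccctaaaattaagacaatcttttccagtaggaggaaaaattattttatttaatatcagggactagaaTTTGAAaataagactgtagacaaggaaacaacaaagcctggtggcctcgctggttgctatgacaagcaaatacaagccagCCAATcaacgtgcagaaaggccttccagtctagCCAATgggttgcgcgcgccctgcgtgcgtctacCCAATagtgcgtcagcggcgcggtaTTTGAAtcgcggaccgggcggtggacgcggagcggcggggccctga
Cdk1: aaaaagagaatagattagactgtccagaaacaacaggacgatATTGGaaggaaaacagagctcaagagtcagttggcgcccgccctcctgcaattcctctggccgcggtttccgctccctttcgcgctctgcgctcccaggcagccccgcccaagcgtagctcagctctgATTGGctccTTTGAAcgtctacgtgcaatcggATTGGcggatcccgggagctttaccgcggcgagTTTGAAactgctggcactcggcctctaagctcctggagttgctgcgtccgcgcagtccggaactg
Plk1: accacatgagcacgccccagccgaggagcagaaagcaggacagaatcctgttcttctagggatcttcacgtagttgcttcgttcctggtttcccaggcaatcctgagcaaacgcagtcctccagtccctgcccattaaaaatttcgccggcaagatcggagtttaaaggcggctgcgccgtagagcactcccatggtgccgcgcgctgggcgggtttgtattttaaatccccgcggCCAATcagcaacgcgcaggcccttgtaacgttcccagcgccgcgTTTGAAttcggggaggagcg
Pttg1: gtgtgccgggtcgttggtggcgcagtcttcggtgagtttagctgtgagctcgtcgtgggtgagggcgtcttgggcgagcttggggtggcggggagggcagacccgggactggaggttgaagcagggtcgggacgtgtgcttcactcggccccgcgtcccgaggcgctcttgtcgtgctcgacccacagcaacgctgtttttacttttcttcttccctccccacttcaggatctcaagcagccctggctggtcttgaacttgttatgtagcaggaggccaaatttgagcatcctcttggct

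In Ccnb2, cyclin B2, CCAAT boxes began 87, 54 and 21 bases before the start and a CHR began at base 5 after it. Cdk1, the kinase that drives mitosis, held CHR matches beginning 71 and 15 bases before the start, and in Plk1, Polo-like kinase 1, the CHR began at base 31. The window of Pttg1, which encodes securin, held neither motif. That window lies wholly inside the gene as annotated by GENCODE M21, which begins at base 43426251 on the minus strand. Sequence before that start was not searched, so the missing motifs do not describe it. A CHR within 50 bases of the start was found in 28 of the 40 members with a window (70.0%), against 6.12% of all 27025 genes with a promoter window and 4.25% of the 9825 tested genes with one. A CCAAT box anywhere in the window was found in 31 (77.5%), against 41.1% and 43.7%, and both together in 26 (65.0%), against 2.57% and 2.05%. The CHR matches near the start, 31 in number, began between base -30 and base 41 with a median at base 8, whereas the 73 CCAAT matches had their median at base -68. These shares describe the sequences and show no binding.

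**Figure D1:**
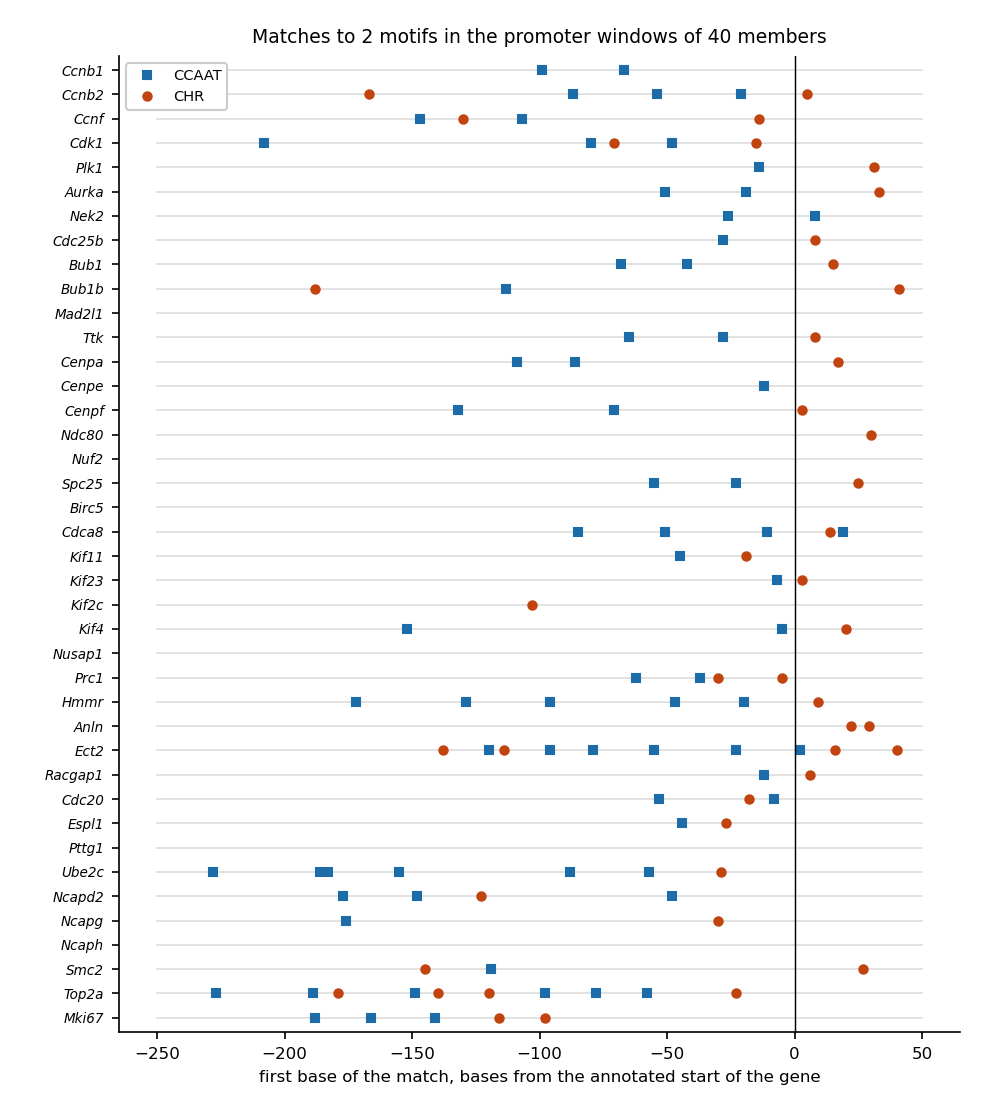
Each row is the promoter window of 1 of the 40 members with RefSeq sequence, both windows of Prc1 and Ect2 being drawn on their row, and the horizontal axis gives the first base of each match relative to the annotated start of the gene. CHR matches (circles) gather around the start, with a median at base 8 for those near it, and CCAAT matches (squares) lie mostly before it, with a median at base -68. Rows without symbols are genes whose window held neither motif.

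After 2 days of auxin the mitotic programme was lower almost throughout. Of the 48 genes, 42 were lower than in untreated cells and none was higher at an adjusted p below 0.05 in limma, with a median log2 change of -0.76. Over all genes tested the median change was -0.01, and 23.8% of genes were called lower and 21.0% higher. Together the 48 genes made up 0.588% and 0.586% of a library at 2 days, against 0.888% and 0.873% in untreated cells. Their summed value at 2 days was 59.6% of that in untreated cells. In 44 of the 48 both libraries at 2 days lay below both untreated libraries, as in 36.5% of all genes tested. In bulk RNA, fewer cells in G2 or mitosis and less of each message per cell cannot be told apart.

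**Figure D2:**
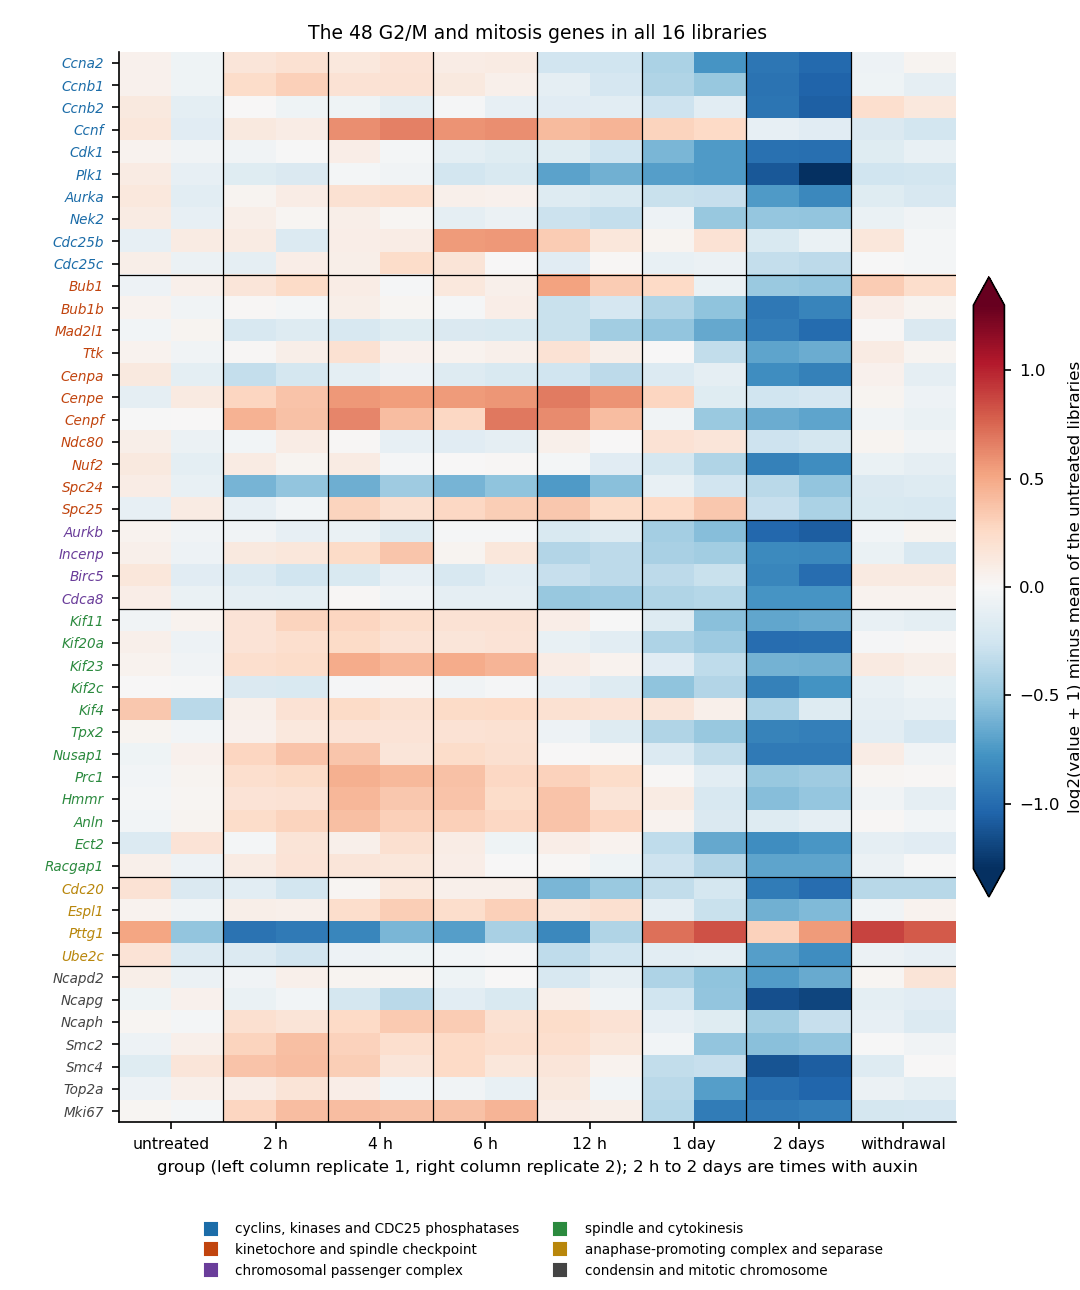
Rows are the 48 genes, with names coloured by role, and columns are the 16 libraries in order of time, 2 for each group. Colour gives log2(value + 1) minus the mean of the 2 untreated libraries, from blue (lower) to red (higher). Nearly every row is blue at 2 days, and Plk1 reaches the lowest group mean, at 43.3% of untreated, whereas Pttg1 is below the untreated mean from 2 to 12 h and above it at later times.

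The size of the fall differed between genes. At 2 days the median member stood at 58.7% of its untreated mean, 7 members were at or below 50%, 31 were between 50% and 75%, and 10 were above 75%. The largest falls were those of Plk1, Ncapg, Smc4, Aurkb, Ccnb2, Top2a and Ccnb1. Not called at 2 days were 6 genes: Ccnf, Cdc25b, Cenpe, Kif4, Anln and Pttg1.

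Among the cyclins and kinases, 8 of 10 fell, with a median log2 change of -0.88. Ccnb1, which encodes cyclin B1, the activator of CDK1, had 6591 and 6136 normalized counts in untreated cells, 7495 and 7901 after 2 h, 7254 and 7229 after 4 h, 6938 and 6677 after 6 h, 5861 and 5465 after 12 h, 4842 and 4520 after 1 day, 3258 and 3088 after 2 days, and 6100 and 5878 after withdrawal. Its 2 libraries at 2 days were the lowest of all 16, and those at 2 h the highest. The log2 change at 2 days against untreated was -1.00 ± 0.07 (SE, adjusted p = 1.1e-07), and the withdrawal libraries lay below both untreated ones by less than the test could resolve (log2 change -0.09, adjusted p = 0.55).

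Plk1, a kinase for mitotic entry, spindle assembly and cytokinesis, showed the deepest fall. It had 1900 and 1649 normalized counts at 2 days, against 4415 and 3782 in untreated cells, a log2 change of -1.21 ± 0.08 (SE, adjusted p = 1.4e-07). It was already lower at 12 h, with 2518 and 2659, and the change from 2 h to 12 h was called as well (log2 change at 12 h against 2 h -0.49, adjusted p = 0.00079). Cdk1 had 1742 and 1732 at 2 days, against 3524 and 3325 in untreated cells, and Ccna2, cyclin A2, which acts in S phase and G2, had 2386 and 2261, against 4748 and 4395. Both stood close to 50% of untreated, at 50.7% and 50.8%. Ccnb2 was not called at any time up to 1 day, when it had 1687 and 1849. At 2 days it had 1051 and 970, against 2221 and 1860 in untreated cells. Aurka, the Aurora kinase of the centrosomes, fell to 57.6% of untreated. Nek2, a kinase that separates centrosomes, fell to 70.1% (log2 change -0.51), and Cdc25c, an activator of CDK1, fell to 79.7% (-0.32).

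Ccnf and Cdc25b did not follow this course. Ccnf encodes the F-box protein cyclin F, which targets proteins for degradation in G2. Its libraries had 5162 and 4205 normalized counts in untreated cells, 5079 and 4990 after 2 h, 7073 and 7336 after 4 h, 6996 and 7072 after 6 h, 6186 and 6325 after 12 h, 5694 and 5577 after 1 day, 4313 and 4211 after 2 days, and 4086 and 3935 after withdrawal. It was highest at 4 and 6 h, and it was the 1 member called between 4 h and 2 h, at a log2 change of 0.52 ± 0.08 (SE, adjusted p = 0.0027), both groups being of the early libraries. Against untreated it was higher at 4 h, 6 h, 12 h and 1 day, the last call being lost without untreated replicate 2 (log2 change 0.13, adjusted p = 0.15), and was not called at 2 days (log2 change -0.13, adjusted p = 0.2). Cdc25b, a phosphatase that starts the activation of CDK1, had 497 and 500 at 6 h, against 366 and 300 at 2 h (log2 change 0.59, adjusted p = 0.014) and 315 and 364 in untreated cells. At 2 days it had 294 and 319, and this was not called.

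**Figure D3:**
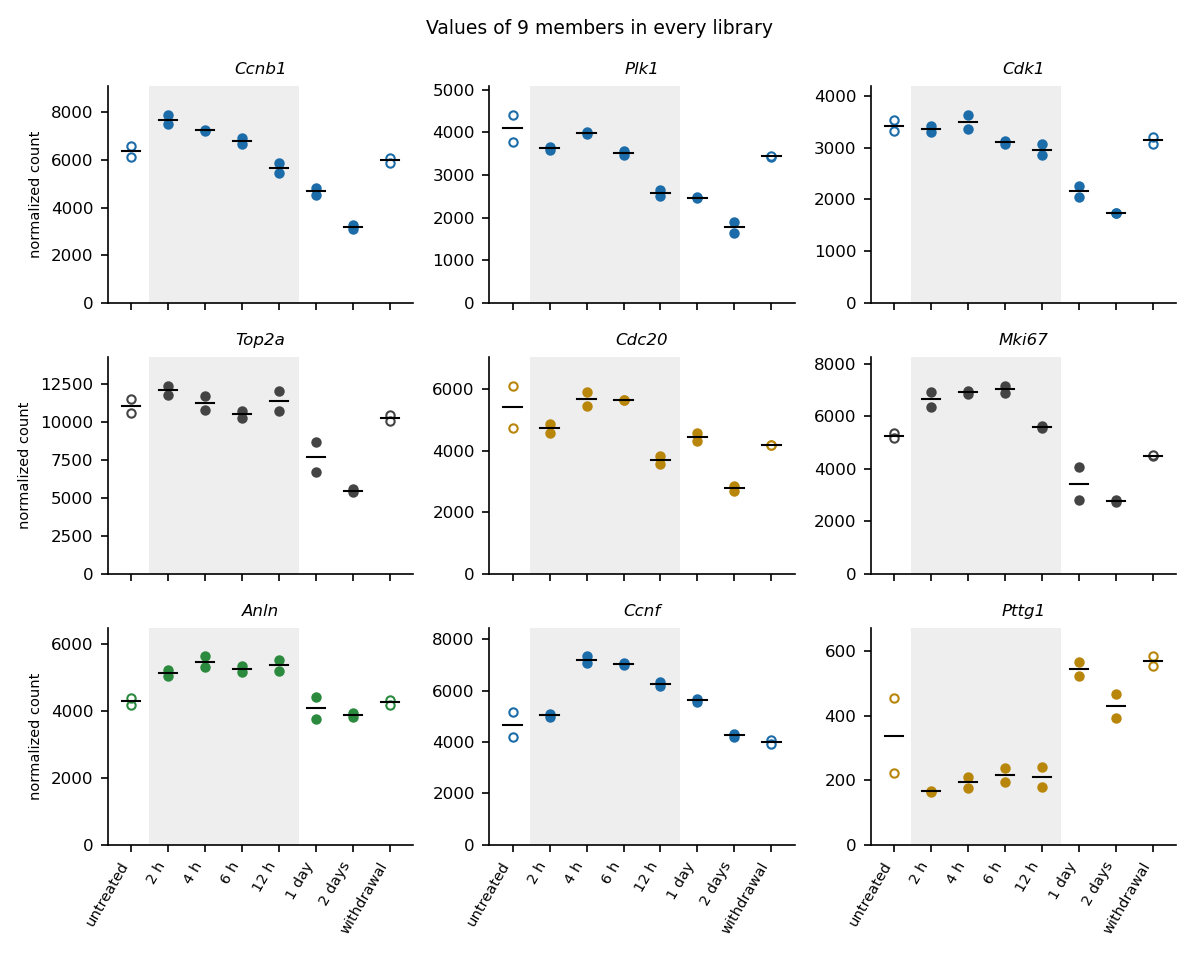
Points are normalized counts of 9 members in each library (vertical axes from 0), short lines are group means, and open points mark the groups without auxin at harvest; the grey band holds the 2 to 12 h libraries. Ccnb1, Plk1, Cdk1, Top2a, Cdc20 and Mki67 have their lowest or nearly lowest values at 2 days, Ccnf peaks at 4 h, Anln is high from 2 to 12 h, and Pttg1 is low from 2 to 12 h.

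Of the 11 kinetochore and checkpoint genes 10 fell at 2 days, with a median log2 change of -0.66. Bub1b, which encodes the checkpoint protein BUBR1 that binds CDC20, had 2524 and 2655 normalized counts at 2 days, against 4982 and 4645 in untreated cells (log2 change -0.89 ± 0.07 SE, adjusted p = 3.5e-07). Mad2l1, its partner in the checkpoint complex, had 1313 and 1222, against 2382 and 2516 (log2 change -0.95). Bub1 and Ttk, checkpoint kinases, fell less, to 71.1% and 63.0% of untreated. Bub1 had been higher at 12 h, with 2983 and 2609, against 1995 and 2172 in untreated cells (log2 change 0.42, adjusted p = 0.0069).

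The NDC80 complex, which grips microtubules, did not move evenly. Nuf2 fell to 55.4% of untreated and Ndc80 to 84.0%, and Spc25 and Spc24 to 78.1% and 74.2%. Spc24 was low at all early times, with 1143 and 1219 normalized counts after 2 h, 1122 and 1263 after 4 h, 1147 and 1209 after 6 h and 1041 and 1189 after 12 h, against 1854 and 1630 in untreated cells. It was called lower at each of these times and at 2 days but not at 1 day (log2 change -0.17, adjusted p = 0.2), and the early values fall within the libraries that stand apart. Spc25 was higher at 12 h than at 2 h, with 1313 and 1219, against 951 and 999 (log2 change 0.37, adjusted p = 0.008). That call did not hold in every fit without 1 of these libraries. Cenpa, the histone H3 variant that marks centromeres, had 917 and 874 at 2 days, against 1747 and 1471 in untreated cells.

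Cenpe and Cenpf, large proteins of the outer kinetochore, were high early. Cenpe, a kinesin that carries chromosomes to the spindle equator, had 1457 and 1712 normalized counts in untreated cells, 1913 and 2038 after 2 h, 2338 and 2301 after 4 h, 2312 and 2346 after 6 h, 2530 and 2361 after 12 h, 1917 and 1413 after 1 day, 1320 and 1361 after 2 days, and 1621 and 1510 after withdrawal. Its libraries at 2 days were the lowest of all 16, and the change of -0.24 ± 0.12 (log2, SE) was not called (adjusted p = 0.12). Cenpf was one of the 8 genes whose early libraries all lay above the other 8, between 2981 and 3997 against 1545 to 2484. At 2 days it had 1585 and 1545, against 2478 and 2484 in untreated cells (log2 change -0.66 ± 0.15 SE, adjusted p = 0.0021).

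All 4 genes of the chromosomal passenger complex, which corrects faulty attachments and guides cytokinesis, fell at 2 days, with a median log2 change of -0.88. Aurkb, its kinase, had 796 and 768 normalized counts at 2 days, against 1666 and 1560 in untreated cells (log2 change -1.04 ± 0.07 SE, adjusted p = 2e-07). Birc5, survivin, had 1321 and 1195, against 2636 and 2154. Incenp, the scaffold, had 1841 and 1836, against 3434 and 3123, and Cdca8, borealin, had 1605 and 1596, against 2890 and 2566. None of the 4 was called lower at 2, 4 or 6 h. Incenp was called higher at 4 h, with 3901 and 4202 (log2 change 0.31, adjusted p = 0.011), a call lost without untreated replicate 2 (0.24, adjusted p = 0.057) and without replicate 2 of 4 h (0.25, adjusted p = 0.098). Incenp, Birc5 and Cdca8 were called lower at 12 h, and all 4 at 1 day. The calls of Birc5 were not steady. Its log2 change was -0.32 at 12 h and -0.31 at 1 day, and -0.17 at each without untreated replicate 1. Its limma call at 1 day was also lost with library weights (adjusted p = 0.14) and in a fit without the early libraries (adjusted p = 0.080). Incenp and Cdca8 were also lower at 12 h than at 2 h (log2 change -0.50 and -0.36), so their fall is seen within the early libraries.

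**Figure D4:**
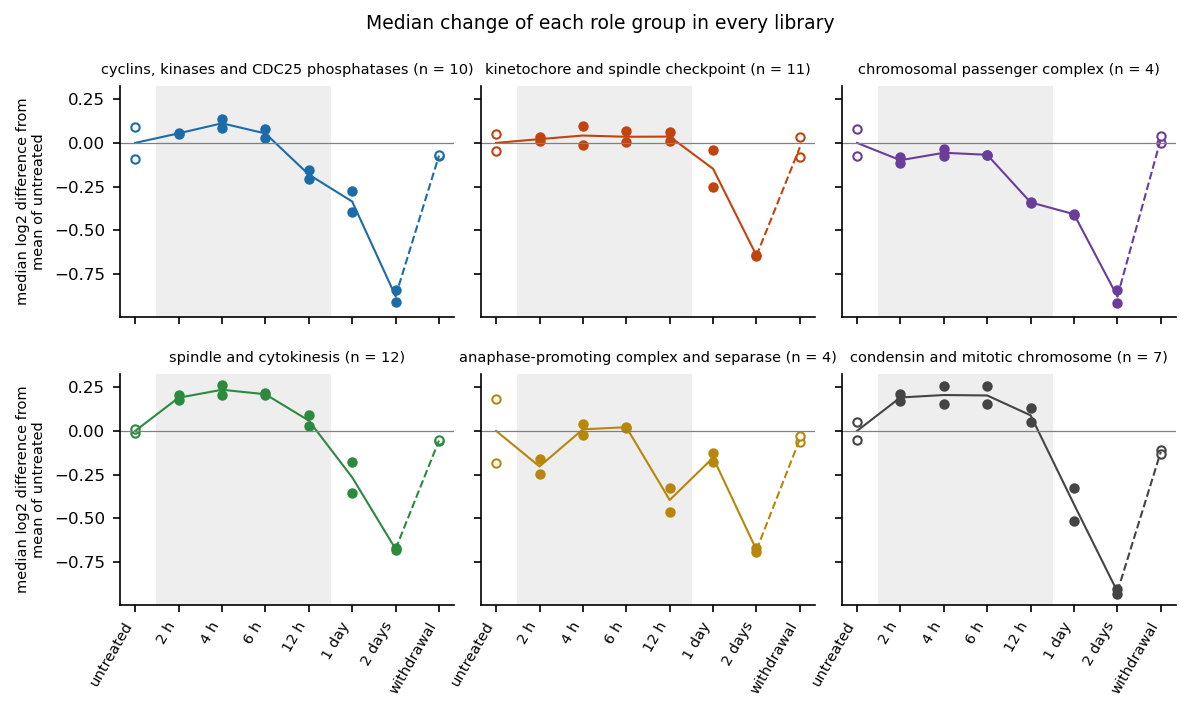
Each panel is a role group, points are the median over its genes of log2(value + 1) minus the mean of the untreated libraries in each of the 16 libraries, and lines join group means; open points mark groups without auxin at harvest, and the grey band marks the 2 to 12 h libraries. In every panel the libraries at 2 days are the lowest, and the withdrawal libraries lie near 0. The spindle and condensin panels are above 0 from 2 to 12 h, and the passenger complex panel is below it.

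Of the 12 spindle and cytokinesis genes 10 fell at 2 days, with a median log2 change of -0.68, and 5 had been higher at 4 h. Kif11, the Eg5 motor that pushes spindle poles apart, had 2125 and 2150 normalized counts at 2 days, against 3295 and 3490 in untreated cells (log2 change -0.67 ± 0.10 SE, adjusted p = 8.1e-05). Tpx2, which activates Aurora A and nucleates spindle microtubules, had 2307 and 2275, against 4326 and 4126. Nusap1, which bundles spindle microtubules, fell to 52.7% of untreated, and Kif2c, a kinesin that takes microtubules apart, to 56.4%.

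Of 5 genes of the central spindle, where cytokinesis is set up, Kif20a, Kif23 and Prc1 were called higher at 4 h, Racgap1 and Ect2 were not, and all 5 fell at 2 days. Kif20a, a kinesin needed for cytokinesis, had 5225 and 4991 normalized counts at 4 h and 2205 and 2221 at 2 days, against 4612 and 4184 in untreated cells. Kif23, the motor of centralspindlin, had 2318 and 2244 at 4 h and 1086 and 1075 at 2 days, against 1713 and 1611 (log2 change 0.46 at 4 h and -0.62 at 2 days). Prc1, a bundler of central spindle microtubules, had 3458 and 3359 at 4 h and 1780 and 1816 at 2 days, against 2441 and 2567. At Kif20a, Kif23 and Prc1 the 2 groups lay on opposite sides of untreated and did not overlap with it. The 4 h calls of Kif23 and Prc1 held without any 1 of the 4 libraries. That of Kif20a (log2 change 0.22) was lost without untreated replicate 2 (0.15, adjusted p = 0.14), without replicate 1 of 4 h (0.18, adjusted p = 0.19) and without replicate 2 of 4 h (0.25, adjusted p = 0.070). Racgap1, the partner of KIF23, and Ect2, the RhoA activator that it recruits, fell to 62.2% and 57.7% of untreated at 2 days. Hmmr, a microtubule-binding spindle protein, was also called at both times, with log2 changes of 0.39 at 4 h and -0.53 at 2 days. Its call at 4 h was lost without untreated replicate 1 (0.37, adjusted p = 0.051) and without replicate 1 of 4 h (0.35, adjusted p = 0.10).

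Anln and Kif4 were not called at 2 days. Anln encodes anillin, a scaffold of the contractile ring, and had 4174 and 4394 normalized counts in untreated cells, 5054 and 5228 after 2 h, 5626 and 5315 after 4 h, 5326 and 5153 after 6 h, 5524 and 5199 after 12 h, 4424 and 3751 after 1 day, 3809 and 3940 after 2 days, and 4333 and 4188 after withdrawal. All 8 early libraries were above the other 8, and the change at 2 days was -0.14 ± 0.08 (log2, SE, adjusted p = 0.14). Kif4, a chromosome-bound kinesin, had 1001 and 1178 at 2 days, against 1688 and 1038 in untreated cells, and the untreated pair differed too widely for the change to be resolved (log2 change -0.29 ± 0.16 SE).

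Of the 4 anaphase genes 3 fell at 2 days. Cdc20, the activator of the anaphase-promoting complex, had 6109 and 4719 normalized counts in untreated cells, 4871 and 4561 after 2 h, 5450 and 5907 after 4 h, 5632 and 5625 after 6 h, 3550 and 3831 after 12 h, 4308 and 4572 after 1 day, 2854 and 2698 after 2 days, and 4171 and 4183 after withdrawal. It was lowest at 2 days (log2 change -0.95 ± 0.10 SE, adjusted p = 4.4e-06), and its withdrawal libraries lay below both untreated ones, at 77.1%, the lowest share of any member. That difference was not called (adjusted p = 0.071). Ube2c, the ubiquitin-conjugating enzyme of the complex, had 2452 and 2300 at 2 days, against 4546 and 3554 in untreated cells. Espl1, separase, had 2374 and 2460, against 3788 and 3554.

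Pttg1, the securin that holds separase inactive, was not called at 2 days. Its libraries had 455 and 222 normalized counts in untreated cells, 163 and 168 after 2 h, 176 and 210 after 4 h, 193 and 237 after 6 h, 178 and 242 after 12 h, 522 and 565 after 1 day, 392 and 467 after 2 days, and 584 and 552 after withdrawal. The untreated pair differed by 1.03 on the log2 scale, the widest gap of any member within a group. Pttg1 was called lower at 2 h (log2 change -0.94 ± 0.26 SE, adjusted p = 0.026) and higher at 1 day (0.77 ± 0.26, adjusted p = 0.033). Its change at 2 days was 0.43 ± 0.26 (adjusted p = 0.19), and the 2 days and untreated libraries overlapped. The call at 2 h was lost without untreated replicate 1 (log2 change -0.42, adjusted p = 0.19), and that at 1 day without untreated replicate 2 (0.26, adjusted p = 0.38). Both calls were also lost without either library of the auxin group. The low values coincide with the libraries that stand apart.

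All 7 condensin and mitotic chromosome genes fell at 2 days, with a median log2 change of -0.92. Ncapg, a subunit of condensin I, had 1272 and 1225 normalized counts at 2 days, against 2702 and 2906 in untreated cells (log2 change -1.17 ± 0.09 SE, adjusted p = 2.6e-07). Smc4, an ATPase core subunit of both condensins, had 2120 and 2194, against 4155 and 5135 (log2 change -1.10 ± 0.10 SE, adjusted p = 1.1e-06). Of the other subunits, Ncapd2 fell to 61.8% of untreated, Smc2, the partner of SMC4, to 69.3%, and Ncaph to 77.0%. Ncaph had been higher at 4 h, with 2250 and 2388, against 1920 and 1847 in untreated cells (log2 change 0.30). That call was lost without untreated replicate 2 (0.27, adjusted p = 0.052), without replicate 1 of 4 h (0.34, adjusted p = 0.051) and without replicate 2 of 4 h (0.26, adjusted p = 0.11).

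Top2a, the topoisomerase that untangles sister chromatids, had 5597 and 5376 normalized counts at 2 days, against 10561 and 11499 in untreated cells. Both libraries at 2 days lay below both at 1 day, and the log2 change against untreated was -1.01 ± 0.10 (SE, adjusted p = 3.3e-06). Mki67, the Ki-67 protein that coats mitotic chromosomes and marks cycling cells, had 2753 and 2813 at 2 days, against 5370 and 5151 in untreated cells, and it had 6956 and 6854 at 4 h. The call of higher at 4 h (log2 change 0.39) was lost without any 1 of the 4 libraries, at changes of 0.36 to 0.42 and adjusted p of 0.071 to 0.16. Its libraries at 1 day, 4072 and 2796, differed by 0.54 on the log2 scale. Per kilobase of the longest coding transcript, Cdc20 stood highest in untreated cells at 3020 normalized counts, followed by Ccnb1 at 2557 and Top2a at 2113, and Cdc25b lowest at 110. At 2 days the per-kilobase levels of these genes were 1548, 1275, 1051 and 99.3, in the same order.

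**Figure D5:**
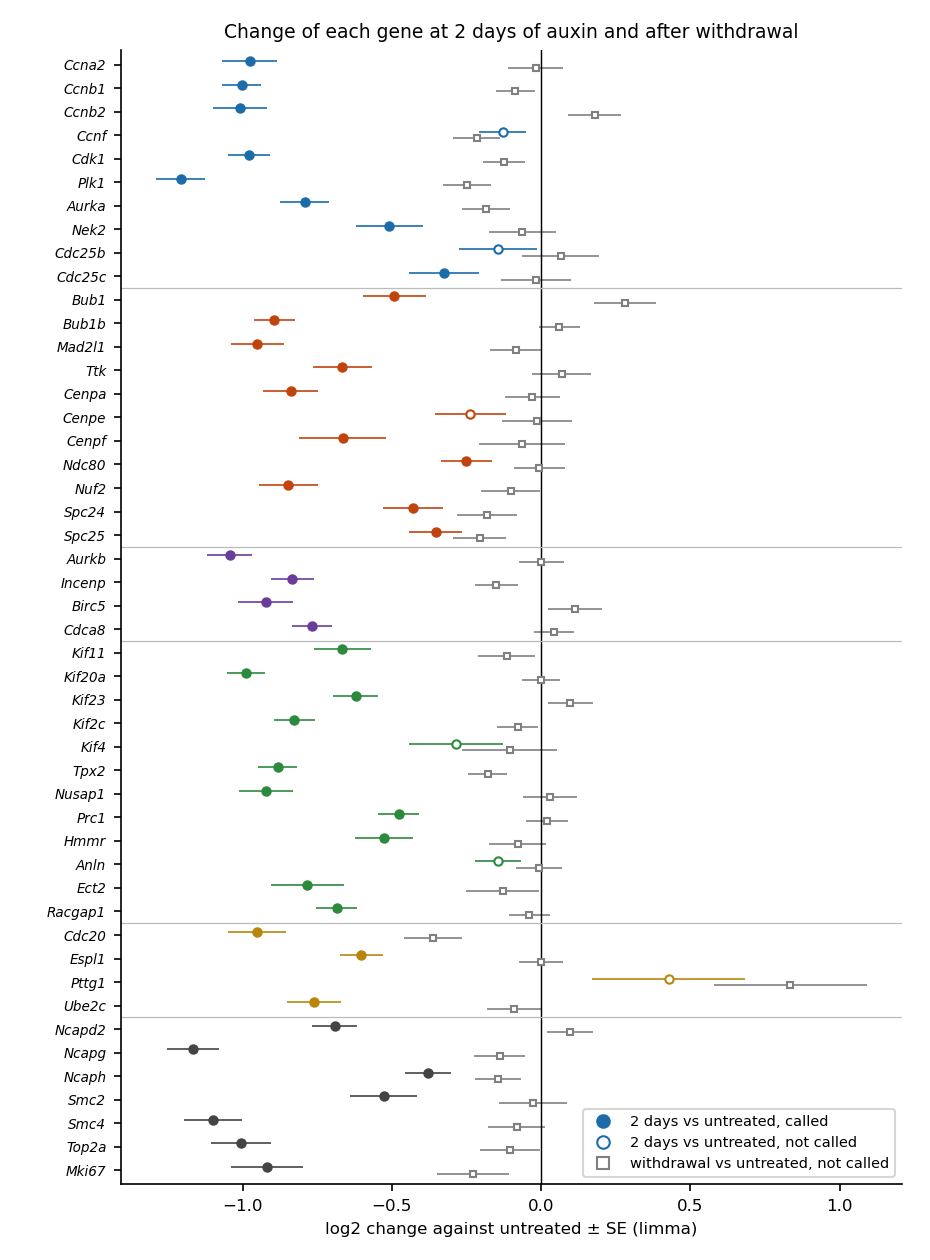
Each row is a gene, grouped by role. Circles give the log2 change at 2 days of auxin against untreated and grey squares that after withdrawal against untreated, with bars of 1 SE from limma, and filled symbols were called at an adjusted p below 0.05. Circles are filled for 42 genes, all to the left of 0, and no square is filled.

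The fall built up over 1 to 2 days. At 1 day 27 of the 48 genes were lower than in untreated cells and 3 (Ccnf, Spc25 and Pttg1) were higher, with a median log2 change of -0.28, where 17.7% of all genes were called lower and 15.9% higher. All 27 were also lower at 2 days, an overlap for which no share over all genes was worked out. Between 1 day and 2 days, a comparison outside the early libraries, 33 were lower and none higher (median -0.40), where 4.07% of all genes were lower and 1.57% higher. The 33 became 19 without replicate 1 and 20 without replicate 2 of 2 days, 6 in a fit without the early libraries and 0 with the 2 groups alone. Cenpa, Ccnb2 and Bub1 were not called at 1 day against untreated and were lower at 2 days than at 1 day, by log2 changes of -0.69, -0.81 and -0.58. The same calls were seen for Ttk, Ndc80, Prc1, Hmmr and Ube2c. A missing call at 1 day does not mean no change: both Ccnb2 libraries at 1 day lay below both untreated ones. Over the whole course 47 of the 48 changed by an F-test over the 6 times with auxin, as did 65.2% of all genes. The count of 27 was 19 to 29 when single libraries were left out and 3 when the 1-day and untreated groups were fitted alone, with 2 residual degrees of freedom.

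In the first 12 h some members were higher and others lower. Against untreated, 5 were higher and 2 lower at 2 h, 12 higher and 2 lower at 4 h, 13 higher and 1 lower at 6 h, and 9 higher and 12 lower at 12 h. Over all genes the shares were 6.75% higher and 8.45% lower at 2 h, then 8.86% higher and 10.2% lower at 4 h, then 10.9% higher and 13.4% lower at 6 h, and finally 14.8% higher and 18.3% lower at 12 h. In all, 19 members were higher at 1 or more of these times, among them Ccnf, Cenpe, Cenpf, Kif23, Prc1, Hmmr, Anln, Espl1, Ncaph and Mki67. Of those higher at 4 h, 9 were lower at 2 days. No share over all genes was worked out for these pooled counts, so they cannot be set against the background. The lower ones at 12 h were Ccna2, Cdk1, Plk1, Bub1b, Mad2l1, Cenpa, Spc24, Incenp, Birc5, Cdca8, Cdc20 and Ube2c. The 12 higher at 4 h became 4 without replicate 1 of 4 h, the 13 at 6 h became 6 and 5 without its replicates 1 and 2 and 8 without untreated replicate 2, and the 9 at 12 h became 2 without replicate 1 of 12 h and 5 without untreated replicate 1. At 2 h the 5 became 1 and 0 without its replicates 1 and 2. The 12 lower at 12 h became 6 without untreated replicate 1 or either 12 h library, and 19 without untreated replicate 2. These counts set the libraries that stand apart against untreated ones, and no batch of the labels allows the 2 to be separated.

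Within the early libraries the direction was downward by 12 h. At 12 h against 2 h 13 members were lower, among them Ccna2, Ccnb1, Plk1, Aurka, Nek2, Bub1b, Tpx2, Kif20a and Cdc20, and 2, Ccnf and Spc25, were higher, where 13.7% of all genes were lower and 10.9% higher. The median member changed by -0.10 on the log2 scale. The calls of Ccnf and Spc25 did not both hold when any 1 of the 4 libraries was left out. At 4 h against 2 h 1 member was higher and none lower, where 1.77% of all genes were higher and 0.681% lower. At 6 h against 2 h 3 were higher (Ccnf, Cdc25b and Spc25) and none lower, where the shares were 4.45% and 3.35%. Of the 13 genes lower at 12 h than at 2 h, 12 were also lower at 2 days than at 1 day. The share of all genes with both calls was not worked out. The 13 became 6 to 8 when any 1 of the 4 libraries was left out.

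After 2 days without auxin the levels stood near those of untreated cells, with the median member slightly below. Against 2 days of auxin 39 of the 48 genes were higher after withdrawal and none was lower, with a median log2 change of 0.69, where 22.2% of all genes were higher and 19.1% lower. In 47 both withdrawal libraries lay above both libraries at 2 days, as in 38.3% of all genes. All 39 had been lower at 2 days than in untreated cells, and the share of all genes with both calls was not worked out. The largest return was that of Ccnb2, with 2368 and 2235 normalized counts after withdrawal, against 1051 and 970 at 2 days (log2 change 1.19 ± 0.09 SE, adjusted p = 3.7e-07). These comparisons share the libraries of 2 days with the fall itself, so the return is not independent of it.

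Against untreated cells none of the 48 was called after withdrawal by limma. An unadjusted p below 0.05 was found for 8 of the 48, and for 2308 of all 13355 genes tested. Without untreated replicate 2, 5 were called lower, and without untreated replicate 1, 1 was called higher. Of all genes 1.72% were called higher and 1.07% lower with all libraries in the fit. In 18 members (37.5%) both withdrawal libraries lay below both untreated ones, and in 4 (8.33%) both lay above. Over all genes tested the shares were 22.7% below and 20.7% above. The median member stood at 95.6% of untreated and 45 lay between 80% and 120%. Outside that range were Cdc20 at 77.1%, Bub1 at 121.5% and Pttg1 at 167.8%. The summed value of the 48 genes was 140485 and 139395 after withdrawal, against 150138 and 143161 in untreated cells. A call that is missing with 2 libraries a group does not show that the levels were the same. The median standard error of a member's log2 change was 0.0894, and a change well above it, that of Cdc20 (-0.36), was not called.

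Members fell both with and without a CHR near the start. The 28 members with a CHR near the start had a median log2 change of -0.67 at 2 days, with 24 lower, and the 12 with a window but no such CHR had -0.84, with 10 lower. Outside the members, 175 tested genes had a CHR near the start and a CCAAT box in the same window. Of these 32.0% were lower at 2 days and 19.4% higher, against 24.0% and 21.4% of all 9775 other genes with a window. Ccnf, Cdc25b, Anln and Kif4, which were not called at 2 days, each had a CHR near the start.

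Other genes of mitosis, on lists that hold none of the 48, also fell. The shares of all genes tested at 2 days were 23.8% lower and 21.0% higher. Of 34 further kinetochore and centromere genes 22 were lower and 2 higher at 2 days, with a median log2 change of -0.41; Cenpk, of the inner kinetochore, fell (-1.97) and Cenpt, of the same network, rose (0.61). Of 39 further spindle, centrosome and cytokinesis genes 28 were lower and 3 higher (median -0.51), and the 3 that rose were Kif18b, a microtubule-depolymerizing kinesin (0.45), Fam83d, a spindle protein (0.44), and Gtse1, a microtubule-binding protein that restrains p53 in G2 (0.37). Of 15 genes of cohesin, which holds sister chromatids together, 10 were lower and none higher (median -0.34), with Esco2, its acetyltransferase, lowest at -1.45. Of the 3 subunits particular to condensin II 2 were lower, Ncapg2 by a log2 change of -1.36. Among 17 subunits and cofactors of the anaphase-promoting complex 7 were lower and 3 higher. Fbxo5, its inhibitor EMI1, fell (-1.03), and Cdc23, a core subunit, rose (0.81).

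Genes of G1/S and DNA replication also fell. Of 34 such genes 30 were lower and none higher at 2 days, with a median log2 change of -0.97, beside the -0.76 of the 48 members. Ccne1 and Ccne2, the cyclins E that start S phase, had log2 changes of -1.73 and -2.23. These genes were also lower earlier, 16 of 34 at 12 h against untreated and 21 of 34 at 12 h against 2 h. Of all genes tested, 23.8% were lower at 2 days, 18.3% at 12 h against untreated and 13.7% at 12 h against 2 h. The difference between the 2 lists was not tested.

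The regulators known to act on these promoters changed unevenly. Of 22 listed regulators of G2/M transcription 10 were lower and 3 higher at 2 days (median log2 change -0.29). Of all genes tested 23.8% were lower and 21.0% higher. Foxm1, the forkhead activator of mitotic genes, had a change of -0.32 (adjusted p = 0.0018), and Mybl2, which encodes B-MYB, had a change of -0.12 that was not called (adjusted p = 0.074). E2f8 and E2f2, factors of the E2F family, fell, with log2 changes of -1.65 and -1.54. Of the pocket proteins, which hold E2F genes down, Rb1 and Rbl2 rose (1.12 and 0.94), and Rbl1 fell (-0.69). These are mRNA levels and say nothing of the activity of the proteins.

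Of 17 genes listed as brakes on mitotic entry 9 were higher and 3 lower at 2 days (median log2 change 0.37). Of all genes 21.0% were higher and 23.8% lower. Not every gene listed is strictly a brake: Gtse1, which restrains p53, is among the 17 and was also counted with the spindle genes. At 4 h 7 were higher and none lower, where the shares were 8.86% and 10.2%. Plk2, a p53-induced Polo-like kinase, rose by 3.38 on the log2 scale, Btg2, an antiproliferative gene, by 2.34, Cdkn1a, which encodes the CDK inhibitor p21, by 1.84, Sfn, 14-3-3 sigma, by 1.72, and Ccng1, cyclin G1, by 1.28. The 3 that fell were Chek1 and Chek2, checkpoint kinases (-1.33 and -0.49), and Wee1 (-0.59). After withdrawal Cdkn1a, Plk2 and Btg2 were lower than at 2 days by log2 changes of -1.94, -3.20 and -2.17. Against untreated cells 1 of the 17 was higher after withdrawal, Sfn (log2 change 0.91, adjusted p = 0.015), and 1 lower, Ccng1 (-0.34, adjusted p = 0.014). Several of these genes are known targets of p53.

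Some members share exonic bases on the opposite strand with another gene of the table, by GENCODE M21. This holds for 12 of the 48, and the sources used here do not say whether reads were counted by strand. Kif20a shares 1271 bases with Cdc23, which rose while Kif20a fell, Ncapg shares 944 with Lcorl, Prc1 shares 911 with Rccd1, and Kif4 shares 832 with Pdzd11. Reads of such pairs may not have been told apart.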

How the data were processed

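Messenger RNA of 16 libraries was purified from total RNA and made into libraries with a VAHTS Universal V6 kit, per the labels' protocols. The deposited values are a signal in units of normalized counts, which the authors scaled per library. This rests on the table's name and values. Trim Galore, STAR, RSEM and DESeq2 and the mm10 build are named in the submitters' processing notes, without versions or roles. For genes with 1 transcript, 71.9% to 99.0% of low values lay within 0.1 of whole reads, and 36.4% to 44.6% for others, so reads were not recovered and no count test was run. Depth per library limits the precision of low values.

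Genes averaging at least 10 (13355) were tested as log2(value + 1), which understates changes of low genes, in limma 3.58.1 (R 4.3.3, intensity trend), with 16 libraries in 1 fit and 8 residual degrees of freedom. P-values were adjusted by Benjamini-Hochberg over all genes within each of 12 comparisons, and a gene is called at an adjusted p below 0.05. The code was tested on simulated data. Replicate numbers did not pair the libraries: correlations of replicate differences between groups ran from -0.061 to 0.066 over 28 pairs. Of the table's identifiers 14467 were found in GENCODE M21 and 85 were not. The 48 members and all lists were chosen with earlier results of these data known. Every member could be named, and 23 were followed under each alternative. Of these, 14 were always followed, and the others were the extremes of their role group at 2 days against untreated. Of the other lists, only genes with large changes or a central role are printed.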

Additional observations from a re-analysis of the deposited data

Results flagged for a closer look

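For 9 members the change at 4 h and the change at 2 days, both against untreated, were called in opposite directions. How many of all genes did so was not worked out. The limma test of the difference itself also passed, but this follows from the opposite calls and adds no support. Among all members it passed for every one except Cdc25b, Ndc80 and Spc24 (adjusted p = 0.15, 0.067 and 0.36). The change at 2 days minus the change at 4 h, on the log2 scale, was -1.31 for Mki67, -1.21 for Kif20a, -1.18 for Cenpf, -1.14 for Incenp, -1.08 for Kif23, -0.92 for Prc1, -0.92 for Hmmr, -0.88 for Espl1 and -0.68 for Ncaph. The untreated libraries cancel in this difference, which sets the 2 days directly against 4 h. Among the 9, the call of higher at 4 h against untreated held without any 1 of the 4 libraries for Kif23 and Prc1. When each of the 4 was left out in turn, the call was lost in 2 of the 4 fits for Incenp and Hmmr, in 3 for Cenpf, Kif20a, Espl1 and Ncaph, and in 4 for Mki67, the highest adjusted p being 0.19. The 4 h libraries belong to those that stand apart, and the part of that in the result was not tested.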

How the results depend on the processing

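The calls at 2 days against untreated and on withdrawal against 2 days stayed within 1.5 times of those reported under every alternative run, except that leaving out untreated replicate 1 called 1 member higher at 2 days. The 285 values of followed members at 2 days, from the 19 of them called there, all kept their call and direction. Some of these members were followed as extremes of this same comparison, so this steadiness was partly built in. Of all 42 calls of lower at 2 days, 40 were kept after rescaling by upper quartiles and 40 with library weights. Of 1726 values of followed members over all comparisons 213 kept the direction and lost the call. None reversed.

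The early counts were less steady. With only the compared groups in the fit, the members higher against untreated were 1 for 2 h, 7 for 4 h, 4 for 6 h, 5 for 12 h and 0 for 1 day, and the lower ones 0 for 2 h, 1 for 4 h, 6 for 12 h and 3 for 1 day. That fit called 0 lower at 2 days against 1 day, 3 higher at 4 h against 2 h, and 8 higher and 3 lower at 6 h against 2 h. Library weights gave 2 higher for 2 h, 1 lower for 4 h, 8 higher for 6 h, and 0 higher and 16 lower for 1 day. Against 2 h they gave 7 higher and 1 lower for 4 h, 9 and 2 for 6 h, and 4 higher for 12 h. Removing the length and GC trend gave 3 higher and 4 lower for 2 h, 7 lower for 6 h and 2 lower after withdrawal, and, against 2 h, 6 higher for 4 h and 5 for 6 h. At 2 h, 8 were higher with a minimum mean of 50 and 9 after rescaling by upper quartiles, which gave 5 higher for 6 h against 2 h.

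Added after seeing the data, a fit of the 2 to 12 h libraries alone gave, against 2 h, 8 higher and 1 lower for 4 h, 9 and 2 for 6 h, and 4 and 21 for 12 h, and a fit without them gave 0 higher at 1 day and 6 lower at 2 days against 1 day.

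Leaving out single libraries, the higher members numbered 0 to 5 for 2 h, 4 to 13 for 4 h, 5 to 11 for 6 h, 2 to 8 for 12 h, 1 to 3 for 1 day, 0 to 1 for 2 days and 0 to 1 after withdrawal. The lower ones numbered 1 to 7, 1 to 4, 1 to 6 and 6 to 19 at the early times in the same order, and 0 to 5 after withdrawal. At 2 days against 1 day 19 to 40 were lower, 19 without replicate 1 and 20 without replicate 2 of 2 days. Against 2 h, 1 to 2 were higher for 6 h, and 0 to 1 higher and 6 to 8 lower for 12 h. With the replicate block, 42 were lower at 2 days, 39 higher on withdrawal against 2 days and 24 lower at 1 day, and every count stayed within 1.5 times. A group left with 1 library is assumed to vary like the others. The causes of these changes were not tested. With 2 libraries a group, log2 changes well above the median standard error of 0.0894 could also go uncalled. Cdc20 after withdrawal, at a log2 change of -0.36 against untreated, was not called.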
